A study of Mus musculus with 14 samples.

Results

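40 genes that build ribosomes in the nucleolus were followed across 14 mouse thymic lymphomas, and 32 of the 40 were measured, among 15803 named genes in all. A gene counted as measured where the array held at least 1 probe set (probes that together read about 1 exon) annotated to that gene alone, and its level is the mean of the log2 values of those probe sets. The genes not measured in this way were Polr1c, Npm1, Fbl, Dkc1, Wdr43, Wdr75, Ddx18 and Noc2l, and nothing is said about them. Nop56 and Nop58 were found under older symbols, and Polr1e is also an older symbol of Polr1c, so its probe sets may have been named for either gene.

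The tumours came from a pair of Sleeping Beauty models of T-ALL, acute leukaemia of T-lineage cells, in which a mobile DNA element mutates genes where it lands. Of the 14 thymic lymphomas, 7 carry the strain label Vav-SB and 7 the label CD4-SB. The labels name no further allele, age, treatment or untransformed control, and they do not spell out how the element is set in motion; Vav and Cd4 are the names of promoters used to drive expression in blood-forming cells and in developing T cells. The series title asks how the cell of origin affects which mutations are selected.

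Ribosomes are assembled in the nucleolus. RNA polymerase I (Pol I) copies the ribosomal DNA into a long precursor, small nucleolar ribonucleoproteins (snoRNPs) modify that precursor, and large sets of assembly factors fold and cut it into the small (40S) and large (60S) subunits. The transcription factor Myc is a textbook activator of these genes, and growing T cells and their leukaemias are known for high production of ribosomes.

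Myc binds the letters CACGTG, called an E-box, which read the same on both strands. RefSeq (GRCm38.p6) gave the 300 bases around the start, 250 before and 50 after, for 29 of the 32 measured genes. At least 1 such window held the motif in 6 of these 29 genes (20.7%) and in 2187 of 27025 genes of that table (8.09%), a description of letters and not of binding. A gene with several listed starts has several windows: counted by window, the motif was in 6 of 32 (18.8%) and in 2349 of 32851 (7.15%). The 6 genes lie among the nucleolar regulators (Mybbp1a), the small subunit factors (Imp4, Tsr1, Utp20) and the large subunit factors (Nop2, Pes1). The lines below show 30 bases around each motif, 5′ to 3′ on the gene's strand with the motif in capitals, because the level of Myc is compared with these genes further on.
Imp4, chr1:34439696-34439725, plus strand: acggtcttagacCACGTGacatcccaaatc
Nop2, chr6:125131811-125131840, plus strand: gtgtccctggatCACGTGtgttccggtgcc
Pes1, chr11:3963965-3963994, plus strand: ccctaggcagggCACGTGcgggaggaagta
Tsr1, chr11:74898092-74898121, plus strand: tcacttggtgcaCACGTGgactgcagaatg
Utp20, chr10:88826765-88826794, minus strand: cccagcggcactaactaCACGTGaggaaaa
Mybbp1a, chr11:72441347-72441376, plus strand: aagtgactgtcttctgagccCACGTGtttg
In Nop2 and Imp4 the motif begins 60 and 121 bases before the start. In the other 4 genes it begins after the start, 2 bases in Pes1, 24 in Tsr1, 37 in Utp20 and 40 in Mybbp1a.

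Column medians of the arrays lay between 7.46 and 7.50, so these values cannot show whether a tumour held more or less RNA overall. Genes of the T lineage were high in all tumours, with a mean log2 level of 8 of them from 9.56 to 10.43 in CD4-SB and from 10.47 to 10.86 in Vav-SB. Markers of other cells (myeloid, dendritic, B-lineage and stromal) were measured too: the mean level of 41 measured of 44 listed ran from 8.01 to 9.15 in CD4-SB and from 7.62 to 8.33 in Vav-SB. The mean level of 25 measured of 28 listed cell cycle genes ran from 7.40 to 9.62 in CD4-SB and from 8.69 to 9.65 in Vav-SB. The labels do not say that each tumour came from its own mouse, and the 7 CD4-SB tumours carry only 4 different first numbers in their titles, so a p-value reflects only how these particular tumours spread. In bulk RNA, fewer cells of a type and less RNA per cell cannot be told apart.

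The ribosome biogenesis genes moved together from tumour to tumour, with the wider swings in CD4-SB. The mean log2 level of the 32 genes was 8.78, 9.56, 8.75, 9.67, 8.86, 8.85 and 9.64 in CD4-SB replicates 1 to 7. It was 9.14, 9.28, 8.76, 8.998, 9.08, 9.29 and 9.28 in Vav-SB replicates 1 to 7. The CD4-SB tumours thus lay in separate sets, replicates 2, 4 and 7 at the top and replicates 1, 3, 5 and 6 at the bottom with none between, while the Vav-SB tumours filled the range between them and only replicate 3 reached the lower set. CD4-SB tumours that share a title number lay in different sets: replicate 1 was low and replicate 2 high, and replicates 5 and 6 were low and replicate 7 high.

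**Figure D1:**
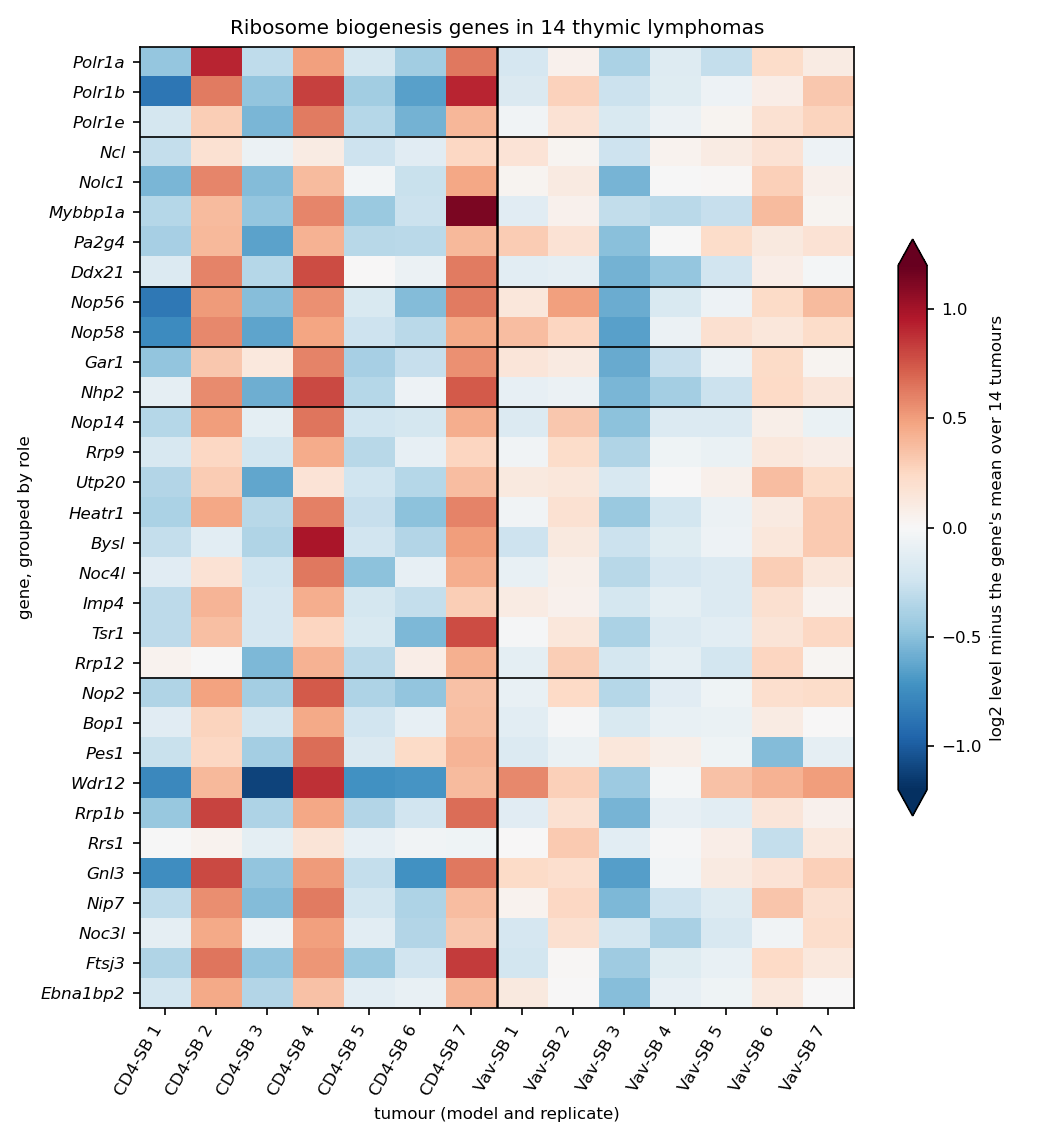
Each cell shows a gene's log2 level minus its mean over the 14 tumours, with genes in rows by role and tumours in columns by model and replicate. CD4-SB replicates 2, 4 and 7 are red and replicates 1, 3, 5 and 6 blue in nearly all rows. Among the exceptions, Rrp12 departs from this pattern in replicates 1, 2 and 6, Rrs1 in replicate 7 and Pes1 in replicate 6.

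Nearly every gene took part. All 32 lay above their model mean in CD4-SB replicate 4 and all 32 below it in CD4-SB replicate 5. In Vav-SB, all 32 lay above it in replicate 2, and 31 of 32 lay below it in replicate 3. Of all genes on the array, 52.6%, 50.4%, 53.7% and 44.3% lay above their model mean in those 4 tumours, which were among the most one-sided. Vav-SB replicates 1 and 5 were more mixed, with 15 and 9 of the 32 genes above their model mean. Over the 7 Vav-SB tumours the median Pearson r between members was 0.784, against 0.009 over all pairs of genes. Of the pairs of members 92.1% had an r above 0, against 50.8% over all genes, and the lowest r was -0.904. Replicate 3 lay furthest from the model mean (median deviation -0.35, against -0.11 to 0.18 in the others), and no r is given without it. These are descriptions in which all pairs share the same arrays. No r is given for CD4-SB because its tumours lay in separate sets.

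The polymerase that starts the pathway showed the steps in its 3 measured subunits. Polr1b, the second largest subunit, had a lowest, median and highest level of 6.87, 7.31 and 8.65 in CD4-SB and of 7.48, 7.67 and 8.06 in Vav-SB. Polr1a, the catalytic subunit, ran from 8.12 by way of 8.37 to 9.49 in CD4-SB and from 8.20 by way of 8.43 to 8.80 in Vav-SB. In both genes the CD4-SB tumours lay on either side of most Vav-SB tumours, and the 2 models overlapped. Polr1e, a subunit of the initiating enzyme, had a mean of 8.30 ± 0.48 in CD4-SB and 8.40 ± 0.16 in Vav-SB (SD, n = 7 each).

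Among the nucleolar regulators, Mybbp1a, which binds Myb and ribosomal DNA and restrains Pol I, was at 9.55 in CD4-SB replicate 7, with a median of 8.17 and a lowest level of 7.96 in that model. In Vav-SB its lowest, median and highest levels were 8.10, 8.29 and 8.81. That single CD4-SB tumour stood above all the others for this gene. Ncl, nucleolin, an abundant protein that binds the ribosomal precursor, varied least within this group, with 12.08 ± 0.21 in CD4-SB and 12.14 ± 0.15 in Vav-SB.

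The snoRNP core genes of the box C/D class, which guides methylation of the precursor, followed the same tumours. Nop56 had a lowest, median and highest level of 9.30, 9.98 and 10.78 in CD4-SB and of 9.57, 10.30 and 10.65 in Vav-SB. Its partner Nop58 ran from 10.13 by way of 10.64 to 11.46 in CD4-SB and from 10.23 by way of 11.08 to 11.26 in Vav-SB. The lowest Vav-SB value of both genes came from replicate 3. In the box H/ACA class, which guides the change of uridine to pseudouridine, Gar1 was at 10.13 ± 0.45 in CD4-SB and 10.01 ± 0.29 in Vav-SB.

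The assembly factors of both subunits split in the same way. The mean of the 9 small subunit genes ran from 8.23 to 9.06 in CD4-SB and from 8.23 to 8.74 in Vav-SB, and that of the 11 large subunit genes from 8.55 to 9.49 and from 8.61 to 9.11. Gnl3, nucleostemin, a nucleolar GTP-binding protein of dividing cells, had a lowest, median and highest level of 9.87, 10.34 and 11.42 in CD4-SB and of 9.96, 10.78 and 10.91 in Vav-SB. Its lowest Vav-SB value, again from replicate 3, stood apart from the other 6 tumours of that model.

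**Figure D2:**
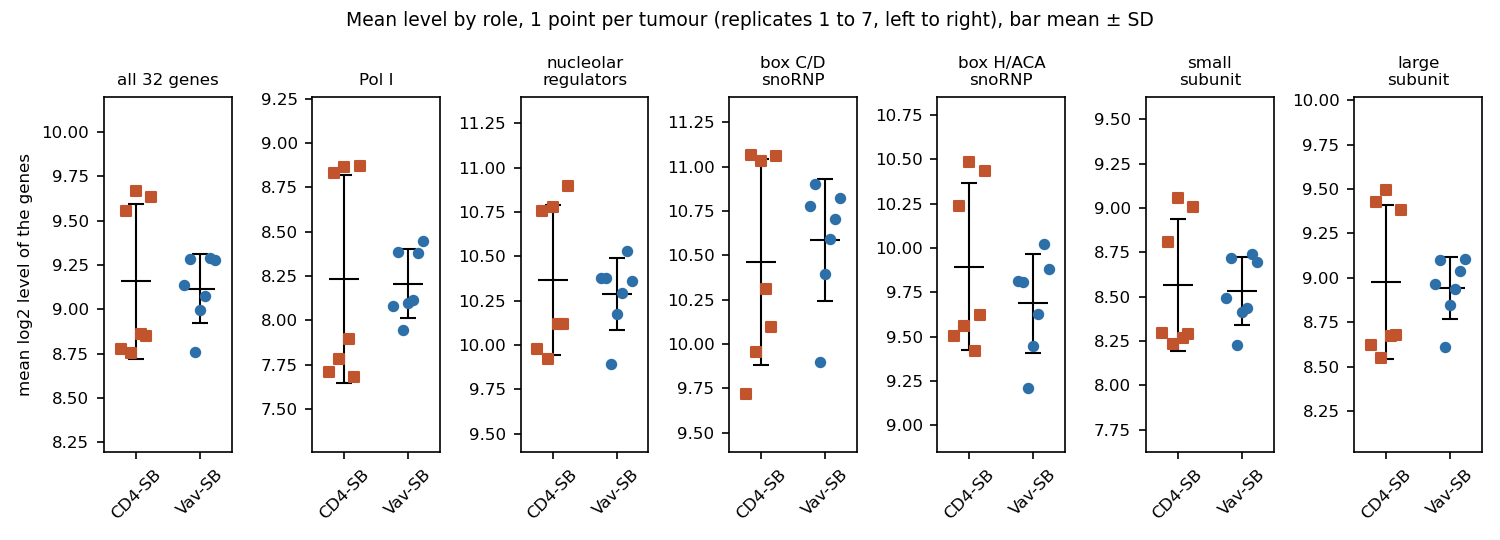
Mean log2 level of the genes of each role, with 1 point per tumour in replicate order within a model, a long bar at the mean and short bars at 1 SD. In each of the 7 panels the CD4-SB points form an upper set of 3 tumours, while Vav-SB points lie closer to one another.

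These genes spread more widely among CD4-SB than among Vav-SB tumours. The SD across tumours was larger in CD4-SB for 31 of the 32 genes (96.9%), against 73.5% of all genes on the array. The median SD of the 32 genes reached 0.47 in CD4-SB against 0.22 in Vav-SB, and the median ratio of the 2 SDs was 1.93, against 1.37 over all genes. At least a 2-fold ratio was seen in 14 of the 32 genes (43.8%) and in 23.2% of all genes. These shares are descriptions without a test. The exception was Rrs1, a regulator of large subunit assembly measured by 2 probe sets, with 9.97 ± 0.09 in CD4-SB and 10.002 ± 0.19 in Vav-SB. Its 2 probe sets differed between the models in opposite directions (Vav-SB minus CD4-SB 0.28 and -0.22), so its level averages unlike values.

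The average levels of the 2 models were compared next, with limma fitted on all genes and Benjamini-Hochberg adjustment over all of them. None of the 32 genes passed an adjusted p of 0.05, where 14.5% of all genes passed. At an unadjusted p under 0.05, 1 of 32 was called, against 27.8% of all genes, and no other gene test than limma was run. In 0 of the 32 genes did the 7 and 7 tumours fail to overlap, against 4.04% of all genes. Differences, as Vav-SB minus CD4-SB on the log2 scale, ran from -0.41 to 0.48 with a median of -0.04, 11 above 0 and 21 below. The mean over the 32 genes stood at 9.12 ± 0.20 in Vav-SB, against 9.16 ± 0.44 in CD4-SB.

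**Figure D3:**
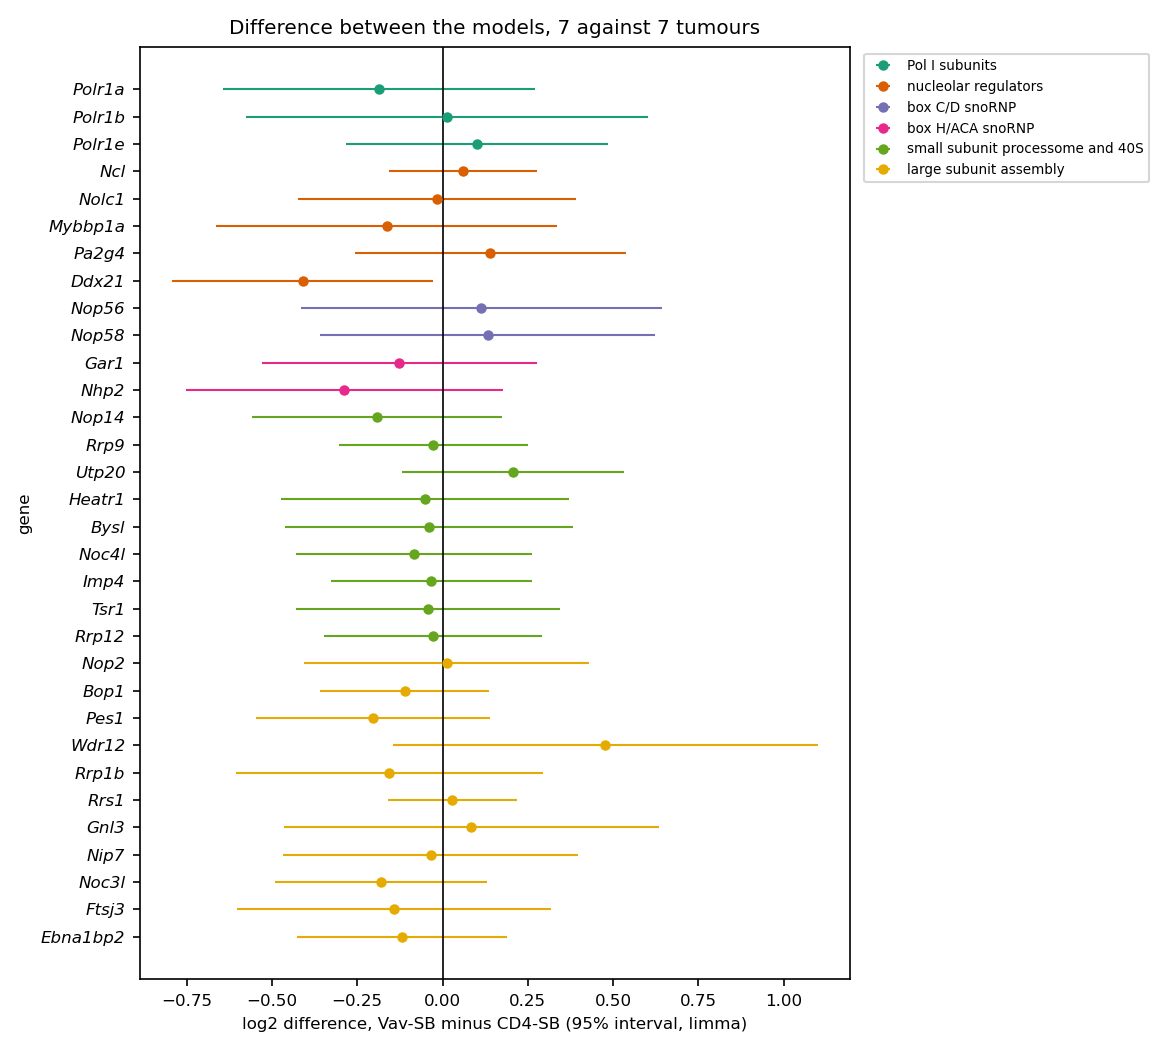
Difference of the mean log2 level, Vav-SB minus CD4-SB, per gene (point) with its 95% interval from limma (line), coloured by role. The interval of Ddx21 alone leaves out 0, and that gene did not pass after adjustment over all genes.

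Ddx21, an RNA helicase that links Pol I transcription with processing of the precursor, had the smallest p. Its lowest, median and highest levels were 9.60, 9.95 and 10.72 in CD4-SB and 9.37, 9.81 and 10.01 in Vav-SB. The difference was -0.41 ± 0.18 (SE; unadjusted p = 0.0375, adjusted p = 0.148), and all 19 of its probe sets had a lower mean in Vav-SB, by values from -0.63 to -0.13. The 3 CD4-SB tumours above every Vav-SB tumour were replicates 2, 4 and 7; the other 4 lay within the Vav-SB range.

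Wdr12 had the largest difference in the other direction. It encodes a subunit of the PeBoW complex, which is needed to mature the large subunit RNAs, together with Pes1 and Bop1. Its lowest, median and highest levels were 7.31, 7.71 and 9.30 in CD4-SB and 7.99, 8.77 and 8.99 in Vav-SB. The difference was 0.48 ± 0.29 (adjusted p = 0.319), with all 4 probe sets higher in Vav-SB, and 4 CD4-SB tumours lay below every Vav-SB tumour while replicate 4 lay above them all. Its partners had values below 0, -0.20 ± 0.16 for Pes1 (adjusted p = 0.458) and -0.11 ± 0.12 for Bop1 (adjusted p = 0.594), and neither passed.

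The other 3 genes with the smallest p were Utp20, a scaffold of the early small subunit particle, Nhp2, a core protein of the box H/ACA snoRNPs, and Noc3l, a factor of large subunit transport. Utp20 had a lowest, median and highest level of 7.45, 7.83 and 8.45 in CD4-SB and of 7.88, 8.20 and 8.45 in Vav-SB, a difference of 0.21 ± 0.15 (adjusted p = 0.423). Nhp2 was at 8.93, 9.45 and 10.31 in CD4-SB and at 8.96, 9.41 and 9.75 in Vav-SB, a difference of -0.29 ± 0.22 (adjusted p = 0.439). Noc3l was at 8.06, 8.35 and 8.90 in CD4-SB and at 8.02, 8.22 and 8.62 in Vav-SB, a difference of -0.18 ± 0.15 (adjusted p = 0.474). All 3 genes overlapped between the models, but not evenly. For Utp20, CD4-SB replicates 1, 3, 5 and 6 lay below every Vav-SB tumour. For Nhp2 and Noc3l, CD4-SB replicates 2, 4 and 7 lay above every Vav-SB tumour, and for Nhp2 replicate 3 lay below them all. Pes1 itself ran from 7.39 by way of 8.03 to 8.47 in CD4-SB and from 7.27 by way of 7.72 to 7.93 in Vav-SB, and its difference of -0.20 became 0.04 with the median over its 3 probe sets.

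Cell cycle genes moved with the ribosome biogenesis genes across most tumours, with exceptions given below. Each gene's log2 level was fitted against the mean level of the 25 cell cycle genes with the model as a term, so the slope is the change in log2 level per log2 unit of the cell cycle level within a model. The slope was above 0 in all 32 genes and passed an adjusted p of 0.05 in 25 of them, none of these below 0, where 6.74% of all genes passed with a slope above 0. The median slope was 0.50, against 0.03 over all genes. By role, 3 of 3 Pol I subunits passed, 4 of 5 nucleolar regulators, 2 of 2 box C/D and 1 of 2 box H/ACA genes, 7 of 9 small subunit genes and 8 of 11 large subunit genes.

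The slopes most distinct from 0 belonged to genes of several roles. Pa2g4, a nucleolar growth regulator, had a slope of 0.58 ± 0.08 (SE; adjusted p = 0.00033 in limma). Wdr12 had a slope of 0.91 ± 0.12 (adjusted p = 0.000331), the highest of the 32. Nhp2 followed with 0.66 ± 0.10 (adjusted p = 0.00101), and Ddx21 with 0.54 ± 0.09 (adjusted p = 0.00163).

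Nop58 had a slope of 0.68 ± 0.12 (adjusted p = 0.00229), and Ebna1bp2, a large subunit factor, one of 0.42 ± 0.07 (adjusted p = 0.00241). At the other end, Rrs1 (0.12 ± 0.08, adjusted p = 0.378), Ncl (0.19 ± 0.08, adjusted p = 0.149) and Noc3l (0.29 ± 0.11, adjusted p = 0.126) did not pass. Gar1, Pes1, Tsr1 and Bysl were the other 4 that missed the threshold, with slopes from 0.34 to 0.45. Tsr1 and Bysl act late in small subunit assembly.

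**Figure D4:**
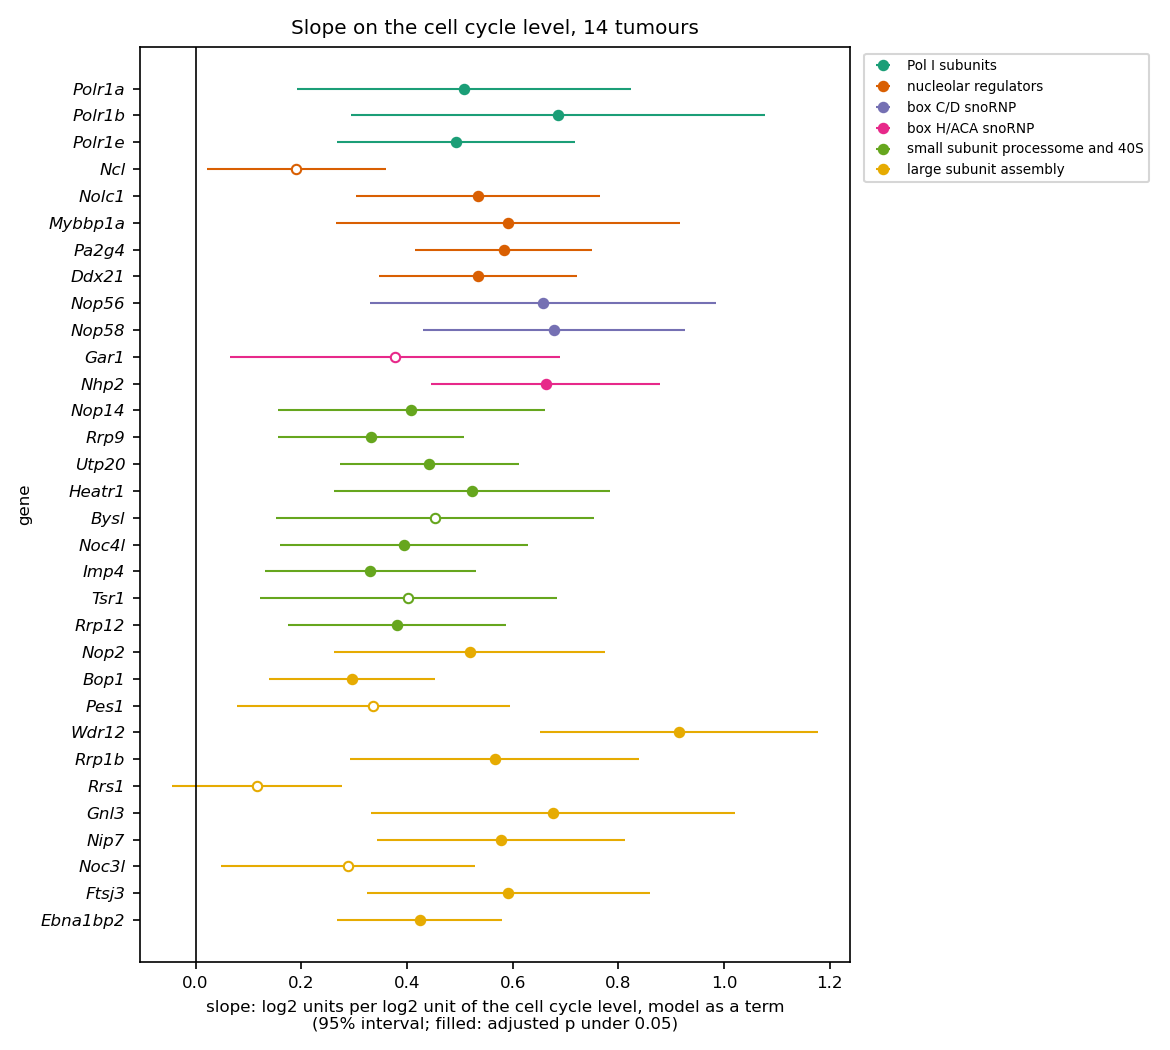
Slope of each gene's log2 level on the cell cycle level over 14 tumours with the model as a term (point) and its 95% interval (line), filled where the adjusted p was under 0.05. All 32 slopes are above 0, and the interval of Rrs1 alone reaches 0.

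In CD4-SB the high set of replicates 2, 4 and 7 had cell cycle levels of 9.37, 9.62 and 9.48, and the low set had levels of 8.57, 7.40, 8.56 and 8.80 in replicates 1, 3, 5 and 6, so the slope there is a step between sets. Replicate 3 had by far the lowest cell cycle level, yet its ribosome biogenesis level of 8.75 was near the 8.78 to 8.86 of the other low tumours. In Vav-SB the lowest cell cycle level, 8.69, came from replicate 3, which was also lowest for the ribosome biogenesis genes. The highest of all tumours, 9.65, came from Vav-SB replicate 1, whose ribosome biogenesis level of 9.14 was in the middle of that model. Fitted on 1 model alone, in fits added after the data were seen, the median slope reached 0.51 in CD4-SB and 0.45 in Vav-SB. There 1 gene passed in CD4-SB (Nhp2), where 1.12% of all genes did, and 4 passed in Vav-SB (Nop58, Wdr12, Gnl3 and Pa2g4), where 0.989% did. A term for a different slope in the 2 models passed in 0 of 32 genes (0.019% of all genes). Leaving out CD4-SB replicate 4 lowered the count of 25 to 14, and keeping 1 tumour per title number lowered it to 10. The share of all genes that passed in these fits is not given, so the drop may not be particular to these genes.

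The mean of the markers of other cells moved the opposite way. In CD4-SB this held for the dendritic and B-lineage lists, which were lower in each of replicates 2, 4 and 7 than in the low set. The myeloid and stromal lists overlapped between the sets. Stromal means were 7.70, 8.23 and 8.17 in replicates 2, 4 and 7 and from 7.93 to 8.65 in the low set. All 32 genes had a slope below 0 on the mean level of the 41 markers, with a median of -0.65, against -0.07 over all genes. Of these, 6 passed an adjusted p of 0.05, where 1.49% of all genes passed with a slope below 0, and 26 had an unadjusted p under 0.05 (16.2% of all genes). The 6 were Rrp1b (-0.97 ± 0.20, adjusted p = 0.0237), Nop58 (-1.04 ± 0.22, adjusted p = 0.0264), Gnl3 (-1.16 ± 0.25, adjusted p = 0.0269), Nolc1 (-0.84 ± 0.19, adjusted p = 0.0349), Pa2g4 (-0.80 ± 0.19, adjusted p = 0.0392) and Ebna1bp2 (-0.60 ± 0.15, adjusted p = 0.0489). Rrp1b acts in large subunit processing, and Nolc1 is a chaperone of snoRNPs.

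This count also turned on single tumours (share of all genes that passed not given). It was 0 without CD4-SB replicate 1, 2 or 7 or Vav-SB replicate 3, 3 without CD4-SB replicate 3, 16 without CD4-SB replicate 4, and 0 with 1 tumour per title number. Replicate 4 of CD4-SB had a high ribosome biogenesis level of 9.67 beside a marker level of 8.70, while replicates 2 and 7 had marker levels of 8.01 and 8.13 and the low set had levels from 8.78 to 9.15.

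Fitted on 1 model alone, again after the data were seen, the marker slope had a median of -0.81 in CD4-SB and -0.21 in Vav-SB. It was below 0 in 32 of 32 genes in CD4-SB and in 28 of 32 in Vav-SB, and passed an adjusted p of 0.05 in 0 of 32 in either with limma. An unadjusted p under 0.05 with a slope below 0 was reached by 23 of 32 genes in CD4-SB (7.33% of all genes) and by 0 of 32 in Vav-SB (6.33% of all genes). A term for a different marker slope in the 2 models passed in 0 of 32 genes in limma (0% of all genes), with 2 of 32, Polr1a and Mybbp1a, at an unadjusted p under 0.05 (4.02% of all genes).

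The 2 companions overlap in what they track. With both in one fit, added after the data were seen, the cell cycle slope had a median of 0.39 and passed in Wdr12, Pa2g4, Nhp2 and Ddx21, 4 of 32 genes (2.43% of all genes passed with a slope above 0). The marker slope in that fit had a median of -0.20 and passed in 0 of 32 (0.0318% of all genes passed, and 5 of the 32 had an unadjusted p under 0.05 with a slope below 0, against 7.4% of all genes). The part of other cells in the spread of the ribosome biogenesis genes was not tested further.

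**Figure D5:**
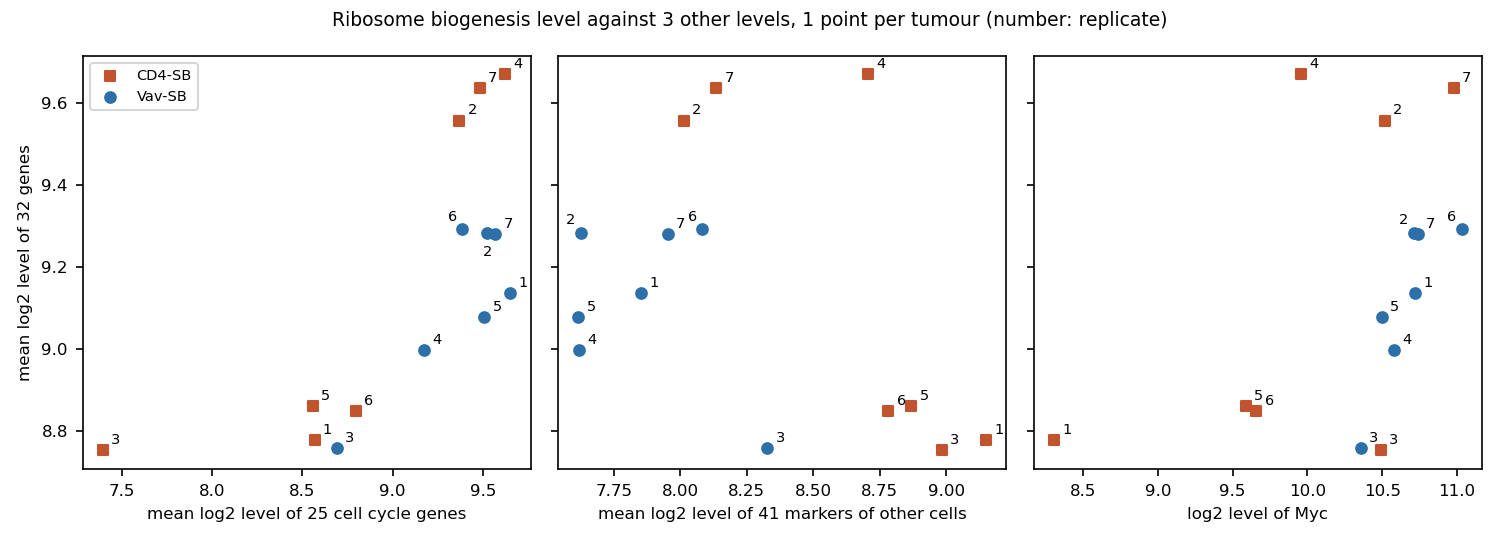
Mean log2 level of the 32 genes in each tumour against the mean log2 level of 25 cell cycle genes, the mean log2 level of 41 markers of other cells and the log2 level of Myc, with the replicate number beside each point. The high CD4-SB tumours 2, 4 and 7 have cell cycle levels from 9.37 to 9.62, and tumour 4 has a marker level of 8.70, nearer to that of the low tumours.

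Both companions had different means in the 2 models, so the comparison of average levels was repeated with each as a covariate. The cell cycle level averaged 8.83 ± 0.77 in CD4-SB and 9.36 ± 0.33 in Vav-SB, and the marker level 8.66 ± 0.43 and 7.87 ± 0.27. With the cell cycle level, all 32 differences were below 0, with a median of -0.29 (all genes -0.03), and 3 genes passed as lower in Vav-SB, where 5.55% of all genes did. They were Ddx21 (-0.69 ± 0.11, adjusted p = 0.00116), Nhp2 (-0.64 ± 0.12, adjusted p = 0.00502) and Ebna1bp2 (-0.34 ± 0.09, adjusted p = 0.0234). For the comparison without a covariate, the adjusted p of Ddx21 ran from 0.00116 to 0.409 over its alternatives and that of Nhp2 from 0.00502 to 0.857. These alternatives include the covariate fits, and the lower ends are the cell cycle values just given. The ranges thus do not show how steady the cell cycle fits are. For Ebna1bp2 the adjusted p was 0.657 with no covariate, 0.0713 with the markers and 0.285 with Myc.

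With the marker level as the covariate, all 32 differences were again below 0, with a median of -0.58 (all genes -0.07). This fit uses the same slope in both models, and the marker levels of the models overlapped only between 8.01 and 8.33. The 32 genes also move together, so they are not 32 separate results. One gene passed, Rrp1b, at -0.93 ± 0.20 (adjusted p = 0.0287), where 0.634% of all genes passed as lower in Vav-SB. Without a covariate Rrp1b was at -0.16 ± 0.21 (adjusted p = 0.696), with the cell cycle level at an adjusted p of 0.0737 and with Myc at 0.167. Wdr12 went from 0.48 to -0.35 with the markers and to -0.01 with the cell cycle level, and Utp20 from 0.21 to -0.25 and to -0.03. With the level of Myc as the covariate, 0 of 32 genes passed in limma, where 6.77% of all genes did, and 7 had an unadjusted p under 0.05 as lower in Vav-SB (11.1% of all genes). The median difference there was -0.29.

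Myc itself also varied more in CD4-SB. Its log2 level in CD4-SB replicates 1 to 7 was 8.31, 10.52, 10.49, 9.96, 9.59, 9.66 and 10.98, and in Vav-SB it lay between 10.36 and 11.03 with a median of 10.71. CD4-SB replicate 3 had high Myc beside the lowest ribosome biogenesis level, 8.75, and replicate 4 had the highest ribosome biogenesis level beside a middle level of Myc. Mycn, a relative of Myc, was lower on average in Vav-SB (6.22 ± 0.51) than in CD4-SB (6.72 ± 0.67), with overlap.

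The slope of the ribosome biogenesis genes on the level of Myc, again with the model as a term, was above 0 in 31 of 32 genes, with a median of 0.30 (all genes 0.03). None passed an adjusted p of 0.05 in limma, where 0.924% of all genes passed, while 16 of 32 had an unadjusted p under 0.05 with a slope above 0 (8.07% of all genes). The strongest were Gar1 (0.44 ± 0.11, adjusted p = 0.0863), Polr1b (0.61 ± 0.18, adjusted p = 0.116), Nop56 (0.54 ± 0.16, adjusted p = 0.127), Polr1a (0.46 ± 0.14, adjusted p = 0.137) and Tsr1 (0.39 ± 0.12, adjusted p = 0.141). Without CD4-SB replicate 3, 11 of 32 genes passed (share of all genes not given for this fit).

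Fitted on 1 model alone, in fits added after the data were seen, the Myc slope had a median of 0.25 in CD4-SB and 0.83 in Vav-SB, where the levels of Myc spanned less. It was above 0 in 31 of 32 genes in CD4-SB and in 30 in Vav-SB, and passed an adjusted p of 0.05 in 0 of 32 in either with limma. An unadjusted p under 0.05 with a slope above 0 was reached by 6 of 32 genes in CD4-SB (4.21% of all genes) and by 21 of 32 in Vav-SB (4.75% of all genes). In Vav-SB, Nip7, a large subunit factor, had a slope of 1.33 ± 0.31 (adjusted p = 0.585), and Pes1 one of -0.92 ± 0.24 (adjusted p = 0.585). A term for a different Myc slope in the 2 models passed in 0 of 32 genes in limma (0% of all genes), with 0 of 32 at an unadjusted p under 0.05 (4.2% of all genes), so the medians in the 2 models are not shown to differ.

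Over all 14 tumours, with the model as a term, the weakest Myc slopes were those of Rrs1 (-0.02 ± 0.08, adjusted p = 0.929), Rrp12, a small subunit export factor (0.08 ± 0.13, adjusted p = 0.79), and Pes1 (0.11 ± 0.14, adjusted p = 0.719). Beside Tsr1 and Pes1, the genes shown above with an E-box had Myc slopes of 0.46 (Mybbp1a), 0.31 (Nop2), 0.27 (Imp4) and 0.24 (Utp20), and their slopes were not compared with those of the other genes. With the cell cycle level in the same fit, added after the data were seen, the Myc slope passed in 2 genes, Nop56 (0.43 ± 0.09, adjusted p = 0.0426) and Nop58 (0.32 ± 0.07, adjusted p = 0.0481), where 0.368% of all genes passed with a slope above 0. For the Myc slope of Nop56 without the cell cycle term, the adjusted p ran from 0.0302 to 0.587 over its alternatives. The fit with that term is among them, so the range does not show how steady that fit is.

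Further genes of the same machinery were read from the same fits. Between the models, where 7.28% of all genes were called higher in Vav-SB, 2 of 11 other Pol I genes were, Taf1c (0.25 ± 0.06, adjusted p = 0.0183), a subunit of the Pol I selectivity factor, and Znrd1 (0.36 ± 0.10, adjusted p = 0.0277), a small Pol I subunit. Of 34 other large subunit factors 1 was higher, the helicase Ddx55 (0.34 ± 0.09, adjusted p = 0.0263), and of 9 other snoRNP factors 1, Tcof1 (0.46 ± 0.13, adjusted p = 0.0298), the nucleolar protein treacle. None of these lists had a gene called lower in Vav-SB, where 7.18% of all genes were. None of 32 other small subunit factors or 24 ribosomal proteins passed in either direction.

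On the cell cycle level, 24 of the 32 other small subunit factors passed with a slope above 0, as did 16 of 34 large subunit factors, 6 of 9 snoRNP factors, 4 of 11 Pol I genes and 8 of 24 ribosomal proteins, and 0 passed below 0. Of all genes, 6.74% passed with a slope above 0 and 3.19% with a slope below 0. Ltv1, an export factor of the small subunit, had a slope of 0.55 ± 0.06 (adjusted p = 0.000105), and Ruvbl1, a snoRNP assembly ATPase, one of 0.65 ± 0.10 (adjusted p = 0.00091). Polr2f, among the 4 Pol I genes, is shared with the other nuclear RNA polymerases (0.58 ± 0.10, adjusted p = 0.00234). Only 24 of 80 listed ribosomal proteins were measured, and their probe sets can bind the many pseudogene copies of these genes.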

How the data were processed

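RNA of 14 frozen tumours was amplified to cDNA, biotin-labelled and hybridised to mouse exon arrays, per the labels' protocols. The authors deposited 1 value per probe set and tumour, on a scale read here as log2. The submitters' processing notes list RMA and Partek with no version. How background was removed, whether probe sets were filtered and which log base was used is not given in the sources used here. Values run from 2.03 to 14.03. Of 194293 probe sets, 179496 had 1 gene symbol and were averaged per gene. Old symbols were updated through RefSeq's GRCm38.p6 gene table.

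Genes were fitted with limma 3.58.1 in R 4.3.3 (lmFit, eBayes, Benjamini-Hochberg, threshold 0.05), with 7 tumours per model. The procedure was tested on simulated data. In slope fits, genes that make up the covariate were left out of the adjustment. The strain label gave the groups; replicate numbers follow accession order. The members, lists and tests were chosen with earlier results of these data known.

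Values are given for the 6 members with the smallest p of the model difference, the 5 with the largest SD within models, the 5 strongest and 3 weakest Myc slopes, Myc, Mycn, at least 1 member per role and up to 3 called genes per further list. Other members named, among them those singled out by the cell cycle and marker slopes, were chosen after their values were seen. The number of arrays limits the precision. Alternatives covered the gene summary, probe set and gene filters, normalization, array weights, prior, title numbers, covariates and leaving out each tumour.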

Additional observations from a re-analysis of the deposited data

Results flagged for a closer look

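In Vav-SB replicate 3, 6 ribosome biogenesis genes and the mean of 24 ribosomal proteins lay far below the other 6 tumours of that model, by Dixon's test of the gap between the lowest tumour and the next. Of 98 groups tested, 7 stood apart in this way, where chance gives about 1 in 20. The 98 include the groups of CD4-SB, whose tumours lay in separate sets, so this share does not measure chance within Vav-SB. All 7 were in this tumour. The groups share genes and move together, so the 7 are not separate events. Nolc1 was at 9.08 where the other 6 tumours lay between 9.63 and 9.91. Gnl3 was at 9.96 (others 10.59 to 10.91), Nop58 at 10.23 (others 10.82 to 11.26) and Pa2g4 at 11.02 (others 11.52 to 11.83). Rrp1b was at 8.01 (others 8.44 to 8.76) and Ebna1bp2 at 9.18 (others 9.60 to 9.81). The ribosomal protein mean was 9.63, against 10.03 to 10.18 in the other tumours. In the same tumour the cell cycle level of 8.69 was the lowest of Vav-SB and the marker level of 8.33 the highest; the part of either in these values was not tested.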

How the results depend on the processing

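The number of arrays, signal near background for dim probe sets and the shared title numbers limit these results. Between the models, 0 of 32 genes passed under each alternative other than a covariate; 1 passed with the markers and 3 with the cell cycle level as a covariate. The median difference ran from -0.11 to 0.04 when single tumours were left out and was 0.09 with 1 tumour per title number, so its sign is not settled. Wdr12 went to -0.35 with the markers and -0.0066 with the cell cycle level, Utp20 to -0.25 and -0.0269, and Pes1 to 0.0377 with the median over probe sets; the cause was not tested. The cell cycle slope passed in 14 to 29 genes when single tumours were left out, in 10 with 1 tumour per title number (fewer tumours), in 4 with the markers as a further term, in 1 in CD4-SB and in 4 in Vav-SB. The marker slope passed in 0 to 16 genes when single tumours were left out, in 10 with bright probe sets, in 0 with 1 tumour per title number, in 0 with the cell cycle level as a further term, and in 0 in CD4-SB and 0 in Vav-SB. The Myc slope passed in 0 to 11 genes when single tumours were left out, in 3 with array weights and in 2 with the cell cycle level as a further term. With single tumours left out it ran from -0.0388 to 0.0081 for Rrs1, from -0.0308 to 0.2476 for Rrp12 and from -0.0878 to 0.1959 for Pes1, changing sign without Vav-SB replicate 6, CD4-SB replicate 7 and CD4-SB replicate 1 in turn. It was also below 0 for Rrp12 with the median over probe sets (-0.017) and with 1 tumour per title number (-0.0579), and for Pes1 with 1 tumour per title number (-0.0078) and in Vav-SB alone (-0.9247). The further terms and the fits on 1 model were chosen after seeing the data. The share of all genes passing under each alternative is not given in this section, so a change in a count may not be particular to these genes. No paired analysis was possible because replicates were numbered in accession order and the labels pair no tumours across the models.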
